A study of Mus musculus with 2 samples.

Results

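Protease inhibitors with WAP, Kazal and Kunitz domains were examined on 2 Affymetrix arrays of vaginal RNA from *Fbln5-/-* and WT mice. The genes were taken by family, as *Slpi*, *Wfdc12*, *Wfdc5*, *Wfdc2*, *Wfdc1* and *Wfdc3* (WAP), *Spink12* and *Spink5* (Kazal), and *Spint1* and *Spint2* (Kunitz), a choice made with earlier results of these data known. Every probe set annotated to exactly 1 of these 10 genes was used, which gave 12 of the 45101 probe sets on each array, and 10 of the 18193 genes that the annotation names. The *Fbln5-/-* group lacked the fibulin-5 gene in all cells and the WT group carried it intact. Both groups were female mice on the C57/Bl6 background, 6 months old, ovariectomized and then given estradiol at 50 µg/kg/d for 3 d. The sample labels place ovariectomy at 11 d, the series description places it at 2 weeks, and the methods start estradiol 2 weeks after ovariectomy. The methods give 2 animals in each group, and the sources used here do not say whether their RNA was pooled. There was 1 array per genotype, so no difference below has a replicate check, a p-value or an error between animals.

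WAP domains are small folds held by disulfide bonds between 4 pairs of cysteines, and Kazal and Kunitz domains are unrelated folds that also block serine proteases by occupying the active site. In stratified epithelium, secreted inhibitors of this kind act on elastase-like enzymes of neutrophils and on the kallikreins that cut junctions between cornified cells, and the membrane-bound Kunitz inhibitors act on matriptase and its relatives at the cell surface. The vaginal epithelium cornifies under estrogen, so the study's question about the balance of proteases and inhibitors in the vaginal wall bears on these genes.

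The sequence before the transcription start is shown for the 2 WAP genes that were higher by 2-fold or more in *Fbln5-/-*, *Wfdc12* and *Slpi*, and for 2 members that differed by less than 1.5-fold, *Wfdc2* from the same cluster and the Kunitz gene *Spint1*. Each window holds the 250 bases before the start, from RefSeq on GRCm38.p6, printed 5′ to 3′ on the strand of the gene. Capitals mark GGGCGG (the GC box) on either strand, and in *Wfdc12* they mark copies of CAGCACC, some of which overlap by 1 base.
Wfdc12, chr2:164190559-164190808, minus strand: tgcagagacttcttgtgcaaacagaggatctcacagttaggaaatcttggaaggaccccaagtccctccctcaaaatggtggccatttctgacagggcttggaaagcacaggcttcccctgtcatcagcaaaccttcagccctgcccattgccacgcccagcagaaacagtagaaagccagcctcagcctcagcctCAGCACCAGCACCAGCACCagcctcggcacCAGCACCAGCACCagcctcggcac
Slpi, chr2:164356508-164356757, minus strand: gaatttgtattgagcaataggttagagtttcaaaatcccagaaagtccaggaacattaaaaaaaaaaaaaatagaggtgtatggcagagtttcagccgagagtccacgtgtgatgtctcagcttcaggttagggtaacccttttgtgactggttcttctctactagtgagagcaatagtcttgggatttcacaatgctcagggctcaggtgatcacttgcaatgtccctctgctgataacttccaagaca
Wfdc2, chr2:164562465-164562714, plus strand: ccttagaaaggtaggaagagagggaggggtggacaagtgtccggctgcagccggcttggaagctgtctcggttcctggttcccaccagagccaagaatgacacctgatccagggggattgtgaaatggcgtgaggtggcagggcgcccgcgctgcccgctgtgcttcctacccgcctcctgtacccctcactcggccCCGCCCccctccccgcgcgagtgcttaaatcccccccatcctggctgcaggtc
Spint1, chr2:119237110-119237359, plus strand: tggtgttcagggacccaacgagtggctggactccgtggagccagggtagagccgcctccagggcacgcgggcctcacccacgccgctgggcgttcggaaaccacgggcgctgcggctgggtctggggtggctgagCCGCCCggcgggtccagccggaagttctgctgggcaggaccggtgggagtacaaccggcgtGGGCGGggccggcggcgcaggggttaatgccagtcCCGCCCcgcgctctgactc

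The promoter table held 6 of the 10 members. GC content was 57.2% in the *Wfdc12* window, 42.0% in *Slpi*, 64.8% in *Wfdc2*, 72.8% in *Spint1*, 69.6% in *Spint2* and 49.6% in *Wfdc3*, against a median of 52.0% over the windows of 27025 genes. Motifs were searched on both strands. They were TATAAA (the TATA box, in 13.0% of all windows), CCAAT (34.5%), GGGCGG (32.9%), TGANTCA (the AP-1 site, 6.87%), AGGTCA (a single estrogen receptor hexamer, 13.8%) and the full palindromic estrogen response element (0.0629%). None of these was found in the windows of *Wfdc12* and *Slpi*. The GC box was found 3 times in *Spint1*, 3 times in *Spint2* and a single time in *Wfdc2*. The single hexamer was found in *Wfdc3* alone. CAGCACC, searched for only after the *Wfdc12* sequence had been seen, was present in 5 copies there, and on both strands 5.70% of windows held it at all while 2 of 27025 held 5 copies or more. A match of letters describes the window and does not show that a factor binds.

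The targeted gene was checked first. *Fbln5*, the elastic fibre protein removed in the knockout, had a scaled signal (brightness in arbitrary units after both arrays were brought to a common median) of 30.5 on the *Fbln5-/-* array and 410.5 on the WT array at 1 probe set. The signal was at least 4.11-fold lower in *Fbln5-/-* when the *Fbln5-/-* signal was set to 100, the level under which readings were left out in the methods. The second probe set of *Fbln5* was under 100 on both arrays. Keratin 5, which marks basal squamous cells, had signals of 16065 on the *Fbln5-/-* array and 16109 on the WT array, so squamous epithelium was present on both. The control probe sets at the 5′ ends of *Gapdh* and *Actb* had log2 ratios of −4.44 and −1.87 for *Fbln5-/-* over WT, against 0.05 and −0.18 at their 3′ ends. At their middle probe sets, *Gapdh* and *Actb* had log2 ratios of −1.16 and −1.22. These probe sets are RNA quality controls. On the *Fbln5-/-* array *Gapdh* had 795.0 at the 5′ end and 13834 at the 3′ end, against 17269 and 13334 on the WT array. *Actb* had 2514 and 11850 on the *Fbln5-/-* array and 9204 and 13397 on the WT array, in the same order. RNA quality by these controls thus differed between the 2 arrays. The part of these 5′ and middle differences in any higher or lower signal given below was not tested. Throughout, a log2 ratio is that of *Fbln5-/-* over WT, and in whole tissue fewer cells of a type and less RNA per cell cannot be told apart.

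Among the inhibitors, *Wfdc12*, *Spink12* and *Slpi* (3 of 10) had a signal at least 2-fold above WT on the *Fbln5-/-* array. Over all 11936 genes measured, 861 were at least 2-fold higher (7.21%) and 571 were at least 2-fold lower (4.78%). Another 6 inhibitors differed by less than 1.4-fold, with log2 ratios from −0.16 (*Wfdc1*) to 0.46 (*Spint2*). The remaining gene, *Wfdc3*, was at least 2-fold lower as measured, and at least 1.20-fold lower when its *Fbln5-/-* signal was set to 100. With signals under 100 set to 100 on both arrays, the counts were 3 inhibitors higher and 0 lower, against 5.80% and 3.95% of all genes. The median log2 ratio was 0.42 for the 10 inhibitors and 0.16 for all genes measured. All 10 genes reached 100 on 1 array or both, and 9 of them did so on both. The split over all genes depended on the scaling and on how probe sets of a gene were combined. It was 679 higher and 698 lower when the arrays were rescaled so that the median ratio of detected probe sets was 1, and 779 higher and 837 lower with the mean over the probe sets of a gene. The inhibitors higher by 2-fold numbered 3 in both cases, and the mean could not change those 3, which had 1 probe set each.

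**Figure D1:**
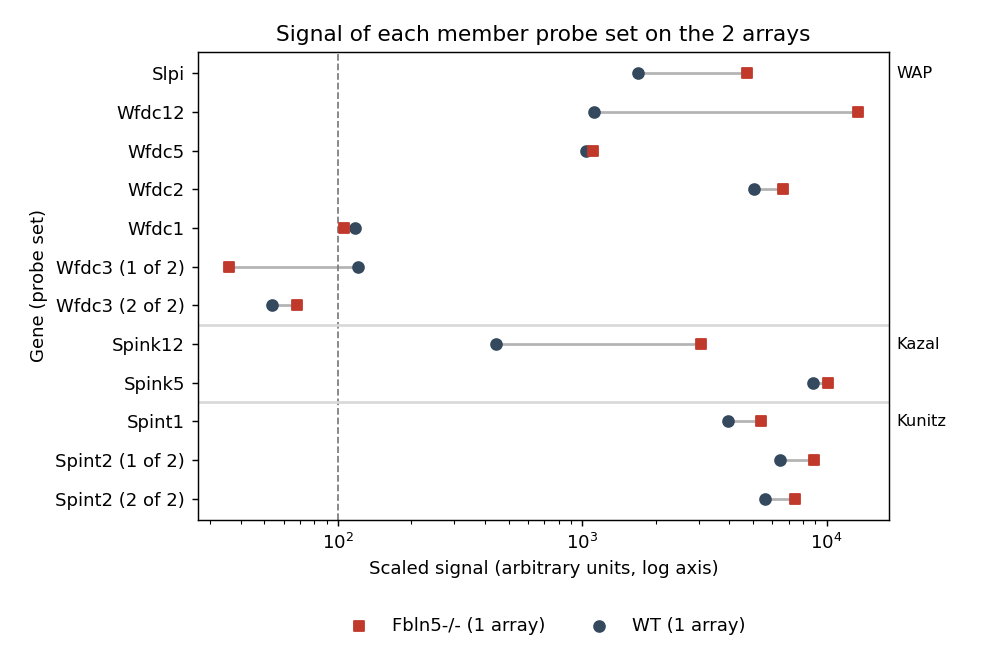
Scaled signal (arbitrary units, log axis) of the 12 probe sets of the 10 inhibitor genes, on the *Fbln5-/-* array (squares) and the WT array (circles), 1 array each, with a dashed line at 100. *Wfdc12* (13402 and 1119), *Spink12* (3055 and 444.4) and *Slpi* (4700 and 1693) have the wide gaps to the right, and the 2 probe sets of *Wfdc3* lie near or under 100.

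Among the WAP genes, *Wfdc12* had the highest ratio. It encodes a secreted protein with a single WAP domain, known in mouse also as SWAM2, and mice lack the human elafin gene to which such proteins are often likened. Its signal was 13402 on the *Fbln5-/-* array and 1119 on the WT array, 12.0-fold higher (log2 ratio 3.58). Of 10977 genes at 100 or more on both arrays at their brightest probe set, this was the 21st highest log2 ratio, and 0.182% of these genes were higher. *Slpi* encodes the secretory leukocyte protease inhibitor, which has a pair of WAP domains, blocks neutrophil elastase and cathepsin G, and is an antimicrobial protein of mucosal surfaces. Its signal was 4700 on the *Fbln5-/-* array and 1693 on the WT array, 2.78-fold higher (log2 ratio 1.47), with 1.78% of genes higher. Each of these genes was measured by 1 probe set, so no other probe set was there to compare either difference with.

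*Wfdc5* lies directly beside *Wfdc12* and encodes another secreted WAP protein. Its signal was 1107 on the *Fbln5-/-* array and 1034 on the WT array (log2 ratio 0.10), close to the median of all genes, 0.16. *Wfdc2*, known in human as HE4, is a WAP protein of reproductive tract and airway epithelium. It had 6622 on the *Fbln5-/-* array and 5057 on the WT array (log2 ratio 0.39). *Wfdc5* and *Wfdc2* were thus detected well above 100 on both arrays and did not share the difference of *Wfdc12*.

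The last WAP genes were dim. *Wfdc1*, known as ps20 and described in stromal and smooth muscle cells, had 105.8 on the *Fbln5-/-* array and 118.0 on the WT array (log2 ratio −0.16), just above the limit on both. *Wfdc3* was the inhibitor whose probe sets disagreed. At 1 probe set its signal was 35.9 on the *Fbln5-/-* array and 120.4 on the WT array, at least 1.20-fold lower, and at the other it was 68.4 and 53.7 in the same order, under 100 on both. The first passed the limit only through the WT array, so it could only have been lower.

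Of the Kazal genes, 1 was at least 2-fold higher and 1 was within 2-fold. *Spink5* encodes LEKTI, a large inhibitor with many Kazal domains that restrains kallikreins 5, 7 and 14 in the epidermis, and its loss in human causes Netherton syndrome. Its signal was 10125 on the *Fbln5-/-* array and 8764 on the WT array (log2 ratio 0.21). *Spink12* encodes a small protein with a single Kazal domain and lies close to *Spink5*. Its signal was 3055 on the *Fbln5-/-* array and 444.4 on the WT array, 6.87-fold higher (log2 ratio 2.78), the 39th highest of the 10977 ratios. The genes *Spink14* and *Spink6* lie between the pair in the gene order and were not analysed here, and the nearby *Spink1* and *Spinkl* were under 100 on both arrays.

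Both Kunitz genes were a little higher on the *Fbln5-/-* array. *Spint1* encodes HAI-1, the membrane-bound inhibitor of matriptase, hepsin and hepatocyte growth factor activator, and *Spint2* encodes HAI-2, which inhibits an overlapping set of proteases that includes prostasin. *Spint1* had 5383 on the *Fbln5-/-* array and 3954 on the WT array (log2 ratio 0.45). *Spint2* had 8869 on the *Fbln5-/-* array and 6462 on the WT array at 1 probe set (log2 ratio 0.46), and 7399 and 5587 in the same order at the other (log2 ratio 0.41). Its probe sets therefore differed by 0.05, where over 4116 genes with several probe sets the log2 ratios within a gene had a pooled SD of 0.52.

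Among the 10977 genes that reached 100 on each array, the middle 50% of log2 ratios ran from −0.15 to 0.46, while 5% lay below −0.84 and 5% lay above 1.02. *Wfdc5*, *Spink5*, *Wfdc2*, *Spint1* and *Spint2* lay inside the middle 50%. *Wfdc1* lay just below it, and *Slpi*, *Spink12* and *Wfdc12* lay in the upper 5%. The 3 higher inhibitors were thus separated from the other 6, with no member between log2 ratios of 0.46 and 1.47.

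**Figure D2:**
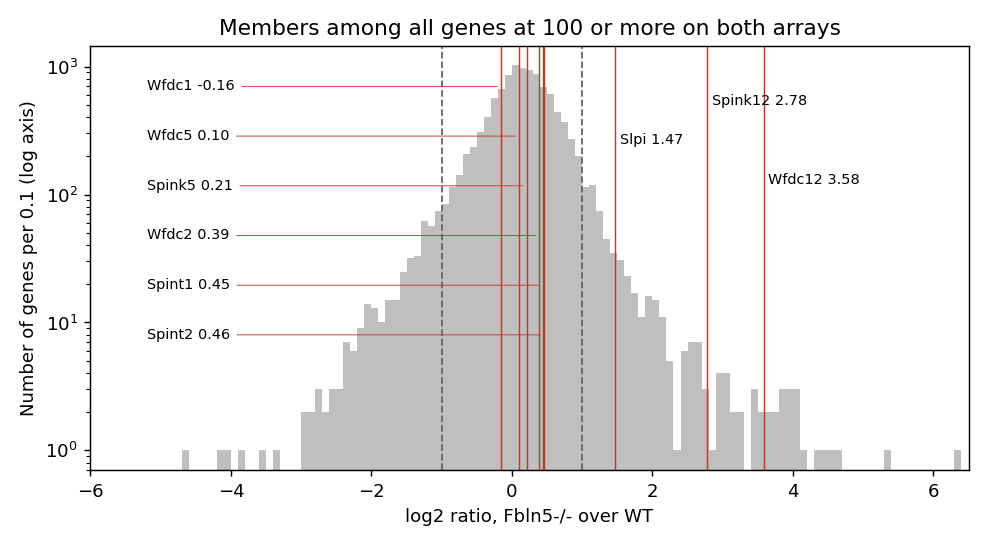
Number of genes (log axis) by log2 ratio of *Fbln5-/-* over WT, 1 array each, for genes that reached 100 on each array. Red lines are the 9 inhibitors in this range and dashed lines mark a 2-fold difference. *Wfdc12* (3.58), *Spink12* (2.78) and *Slpi* (1.47) stand in the upper tail, and the other 6 (−0.16 to 0.46) lie near the peak.

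Position was compared next, since *Wfdc5*, *Wfdc12*, *Slpi*, *Wfdc2* and *Wfdc3* belong to the WAP cluster of mouse chromosome 2. The gene order of GRCm38.p6 was used, without coordinates, from 3 protein-coding genes before *Wfdc5* to 3 after *Wfdc3*. Of the 38 genes in this stretch, 28 had a probe set and 15 reached 100 on 1 array or both at the brightest probe set. *Wfdc12* and *Slpi* were the genes at least 2-fold higher, and they are separated by 8 genes. *Wfdc15b*, another single-domain WAP protein and known as SWAM1, had 381.6 on the *Fbln5-/-* array and 222.5 on the WT array (log2 ratio 0.78). *Wfdc15a* and the seminal vesicle genes with a probe set, *Svs2*, *Svs4*, *Svs3a*, *Svs6* and *Svs5*, which lie between *Wfdc12* and *Slpi*, were under 100 on both arrays. Between *Slpi* and *Wfdc2* lie 7 genes, of which the proteoglycan gene *Sdc4* had 3785 on the *Fbln5-/-* array and 3581 on the WT array (log2 ratio 0.08). The Golgi gene *Sys1* had a log2 ratio of −0.68, *Pigt*, which attaches GPI anchors, had −0.40, and *Dbndd2* had 0.54. *Matn4*, *Rbpjl* and *Trp53tg5* were under 100 on both arrays. The genes between *Wfdc2* and *Wfdc3* with a probe set, *Wfdc6a*, *Eppin* and *Spint4*, were also under 100 on both.

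At the ends of the stretch, *Tomm34*, a mitochondrial import factor, had a log2 ratio of 0.01, and *Stk4*, a Hippo pathway kinase, had 0.97, while *Kcns1* was under 100 on both arrays. *Dnttip1* and the troponin gene *Tnnc2* had −0.07 and 0.42. *Ube2c*, a mitotic ubiquitin-conjugating enzyme, was 4.09-fold lower, with 991.4 on the *Fbln5-/-* array and 4051 on the WT array. Of the 15 genes of the stretch past the limit, 2 were therefore at least 2-fold higher and 2 at least 2-fold lower as measured. Over all genes measured, these shares were 7.21% and 4.78%. The other lower gene was *Wfdc3*, which passed the limit only through the WT array and was at least 1.20-fold lower.

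**Figure D3:**
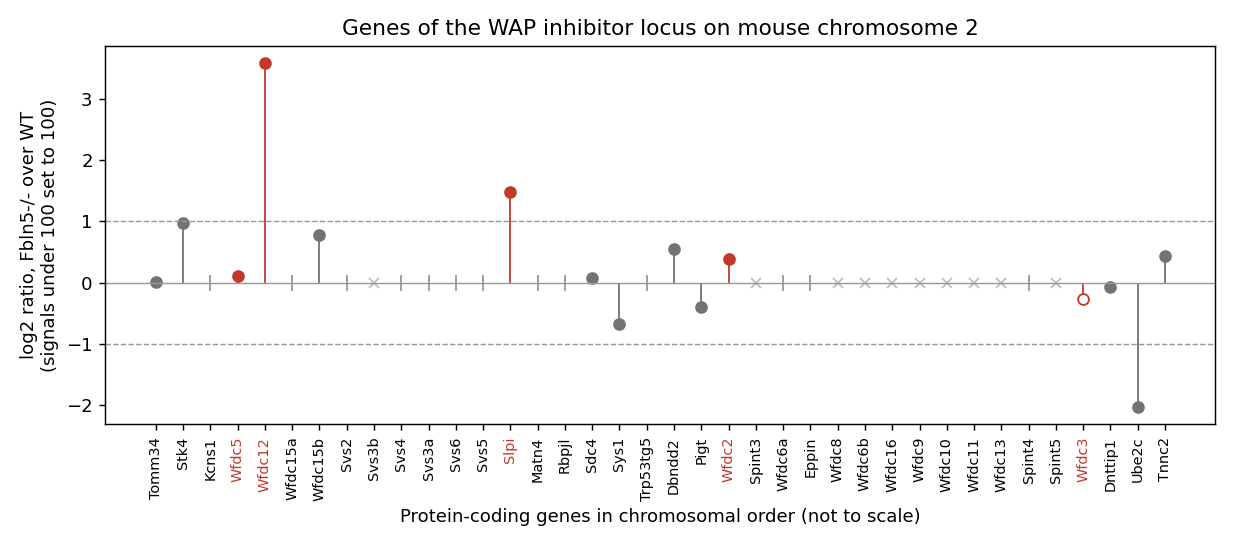
Log2 ratio of *Fbln5-/-* over WT (1 array each, signals under 100 set to 100) of 38 protein-coding genes in chromosomal order, not to scale. Red marks are the 5 inhibitors, the open circle is a bound, bars at 0 are genes under 100 on both arrays and crosses are genes with no probe set in the annotation used. *Wfdc12* (3.58) and *Slpi* (1.47) stand above a 2-fold difference, and *Wfdc5* (0.10) lies beside *Wfdc12*.

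A list of 37 further WAP, Kazal and Kunitz genes was described in the same way. Of these, 22 had a probe set and 10 reached 100 on 1 array or both. Of the 10, 3 were at least 2-fold higher and 0 lower, against 7.21% and 4.78% of all genes measured. With signals under 100 set to 100 the counts were 2 and 0, against 5.80% and 3.95%. *Wfdc18*, a WAP protein first described in mammary gland, had 5392 on the *Fbln5-/-* array and 1858 on the WT array (2.90-fold, log2 ratio 1.54). The other 2 had WT signals under 100 and could only have been higher. *Tfpi2*, a Kunitz inhibitor of plasmin and trypsin, had 207.3 on the *Fbln5-/-* array and 52.1 on the WT array, at least 2.07-fold higher, and *Wfdc21* had 199.0 and 65.6 in the same order, at least 1.99-fold higher. The other measured genes, *Wfdc15b* (given above), *Wfdc17* (log2 ratio 0.80), *Reck* (0.81), *Aplp2* (0.52), *App* (0.37), *Tfpi* (0.09) and *Ambp* (−0.69), were within 2-fold at the brightest probe set, although the other probe sets of *Aplp2* ran from a log2 ratio of −0.42 to at least 2.60-fold higher. *Ambp* encodes the precursor of the Kunitz protein bikunin, and *Tfpi* the tissue factor pathway inhibitor. The list median was 0.79 and that of all genes 0.16.

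Known targets of these inhibitors, other serine proteases and their partners formed a list of 40 genes. Of these, 27 were measured, 10 were at least 2-fold higher and 1 was lower, against 7.21% and 4.78% of all genes measured. With signals under 100 set to 100 the counts were 10 and 0, against 5.80% and 3.95% of all genes. *Klk6* (308.4 on the *Fbln5-/-* array and 49.4 on the WT array) and *Tpsab1* (446.9 and 63.3 in the same order) could only have been higher. The lower gene, *Hpn*, passed the limit only through the WT array. For *Spink5*, the target *Klk7* was 8.12-fold higher, with 1501 on the *Fbln5-/-* array and 184.7 on the WT array, while *Klk5* had 92.5 and 22.6 in the same order, under 100 on both. *Klk14* was not analysed here. The inhibitor and the protease thus had log2 ratios of 0.21 and 3.02. Other proteases of stratified epithelium at least 2-fold higher included *Prss22* (2.09), *Klk12* (2.05), *Klk8* (1.79), *Tmprss11d* (1.57) and *Tmprss11a* (1.44), given as log2 ratios.

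For *Spint1* and *Spint2*, the target *St14* (matriptase) had 2081 on the *Fbln5-/-* array and 1937 on the WT array (log2 ratio 0.10). *Prss8* (prostasin), which works with matriptase in epithelial barriers, had 1139 on the *Fbln5-/-* array and 647.0 on the WT array (log2 ratio 0.82). *Hgfac* had 182.5 and 290.7 in the same order (log2 ratio −0.67), and *Hpn* (hepsin), the gene counted as lower, had 41.9 and 104.4, at least 1.04-fold lower. None of these targets at 100 or more on both arrays reached a 2-fold difference.

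For *Slpi*, the neutrophil enzymes *Elane* (31.6 on the *Fbln5-/-* array and 12.7 on the WT array) and *Ctsg* (24.7 and 15.9 in the same order) were under 100 on both arrays. *Grn*, whose product progranulin is shielded from elastase by SLPI, had 8449 on the *Fbln5-/-* array and 6013 on the WT array (log2 ratio 0.49). *Slpi* RNA was thus bright on both arrays, and the RNA of *Elane* and *Ctsg* was not detected above 100. The arrays do not measure proteins, so these signals do not tell whether the 2 enzymes were present in the tissue.

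**Figure D4:**
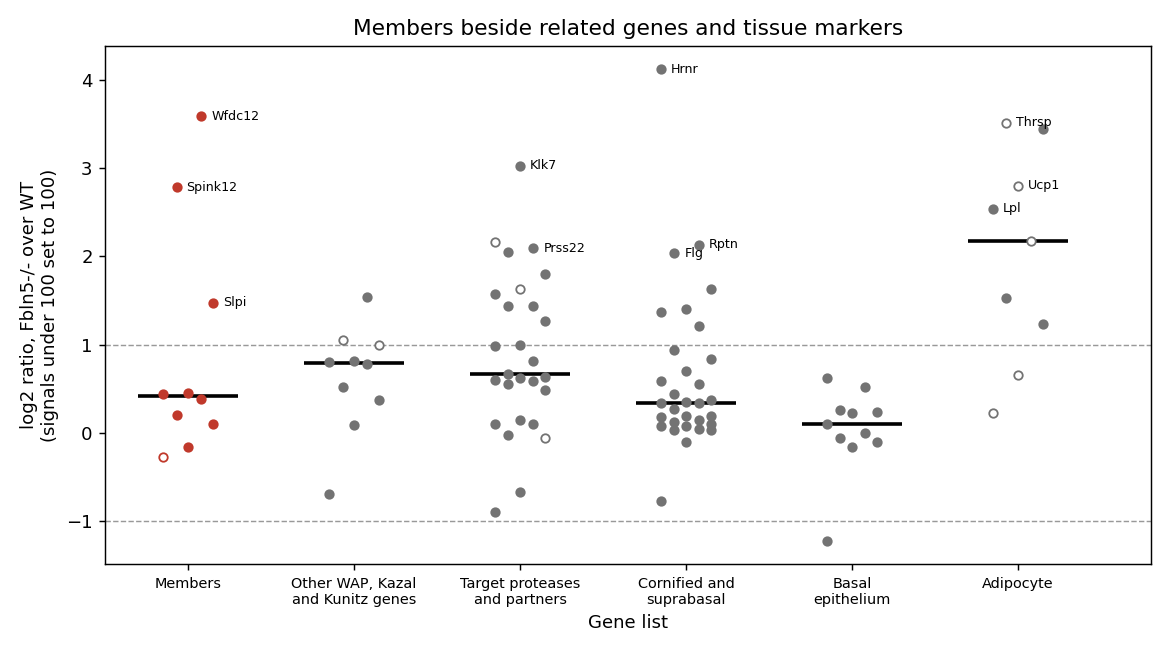
Log2 ratio of *Fbln5-/-* over WT (1 array each, signals under 100 set to 100) of genes measured in 6 lists. Filled circles are genes that reached 100 on each array, open circles are bounds, each black bar is the median of a list and the dashed lines stand at 2-fold. Medians were 0.42 for the inhibitors, 0.79 for other WAP, Kazal and Kunitz genes and 0.67 for target proteases, other proteases and partners. They were 0.34 for cornified and suprabasal genes, 0.10 for basal genes and 2.17 for adipocyte genes.

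Markers of the cells that could carry these transcripts are given beside the inhibitors, with signals summed over every gene of a list that had a probe set. The counts stand against 7.21% of all genes measured at least 2-fold higher and 4.78% lower. Of 31 cornified and suprabasal genes measured, 7 were at least 2-fold higher and 0 lower, with a summed signal of 337496 on the *Fbln5-/-* array and 272435 on the WT array and none under 100. The highest ratios among those named were those of the late cornification genes *Hrnr* (log2 ratio 4.11), *Rptn* (2.13) and *Flg* (2.04). Of 11 basal genes, 0 were higher and 1 was lower, with summed signals of 79639 on the *Fbln5-/-* array and 73010 on the WT array. *Slpi* and *Wfdc18* are also known from glandular epithelium, and of 15 genes of simple and glandular epithelium 1 was higher, *Pigr* (7.76-fold), and 1 lower, *Cldn4* (3.27-fold), with summed signals of 65737 and 56070 in the same order. Of 7 neutrophil genes measured, 2 were higher (*S100a8* and *S100a9*, both also made by keratinocytes) and 3 lower, and with the floor of 100 these counts were 2 and 1. Of the lower genes, *Ngp* and *Camp* passed the limit only through the WT array, and the other was the decoy receptor gene *Il1r2*, with 2447 on the *Fbln5-/-* array and 8795 on the WT array. The summed signals of the neutrophil list were 8652 on the *Fbln5-/-* array and 11003 on the WT array. Without *Il1r2*, left out after its values were seen, they were 6205 and 2208 in the same order. Most of these sums without *Il1r2* came from *S100a8* (4374 and 1199) and *S100a9* (1231 and 422.7), so they do not show a rise of neutrophils. The part of any of these cell types in the higher inhibitor signals was not tested. Adipocyte genes were at least 2-fold higher in 9 of 9 measured (7 with signals under 100 set to 100), of which *Retn*, *Cidea*, *Ucp1*, *Thrsp* and *Pck1* had WT signals under 100 and could only have been higher, with a summed signal of 13746 on the *Fbln5-/-* array and 3098 on the WT array, and their part was not tested. Genes of hair follicle and sebaceous gland were under 100 on both arrays for 13 of the 17 with a probe set (summed signals of the 17 were 1346 on the *Fbln5-/-* array and 1055 on the WT array), and the hair keratins *Krt25*, *Krt27*, *Krt31*, *Krt34*, *Krt35*, *Krt71*, *Krt72*, *Krt73* and *Krt86* were all among them.

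The direction of the 3 higher inhibitors did not depend on how the arrays were scaled. Over the settings tried, the log2 ratio of *Wfdc12* ran from 3.48 to 3.58, that of *Spink12* from 2.68 to 2.78 and that of *Slpi* from 1.37 to 1.47. Rescaling to a median ratio of 1 lowered the median of all genes to 0.05 on the log2 scale, and under it *Wfdc5* had −0.01. The log2 ratio of *Wfdc3* ran from −1.85 to −0.27.

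**Figure D5:**
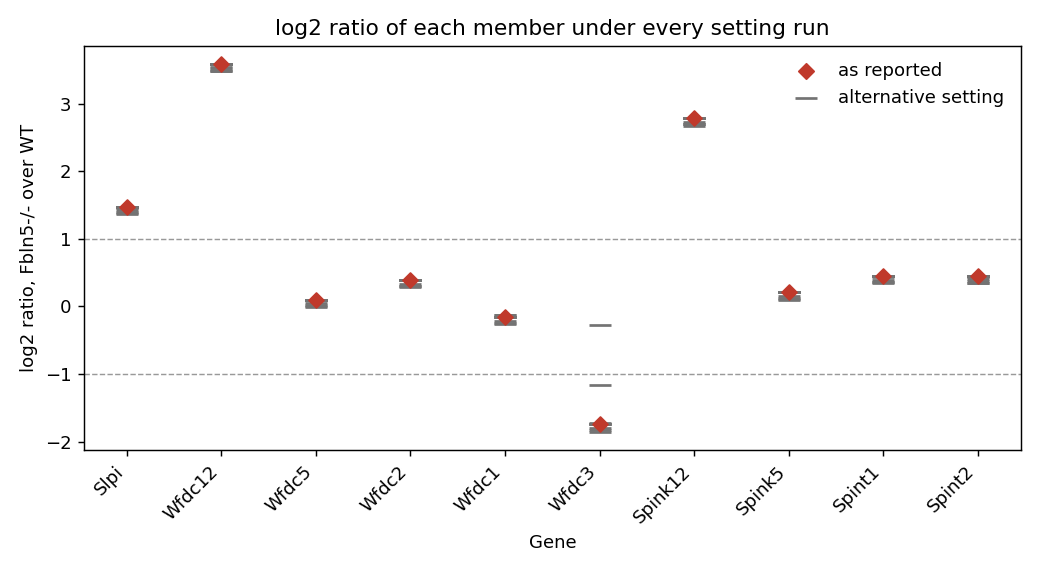
Log2 ratio of *Fbln5-/-* over WT (1 array each) of the 10 inhibitors as reported (diamonds) and under the alternative settings (dashes), with dashed lines at a 2-fold difference. *Wfdc12*, *Spink12* and *Slpi* stay above the upper line in every setting, and *Wfdc3* spreads from −1.85 to −0.27.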

How the data were processed

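The authors deposited linear signal intensities for 1 array per genotype. The submitters' processing notes name MAS5, whose version is not given in the sources used here. The trimmed mean was 500.0 on both, so a scaling per array was already in the values. After the methods, signals were scaled to a common median (factors 1.03 for *Fbln5-/-* and 0.973 for WT), and a probe set was kept if it reached 100 on either array. A WT signal of 0 was set to 0.1. Detection calls were not used here. Probe sets with 1 symbol in the platform annotation numbered 34945 (932 had several and 9160 none, besides 64 controls). The brightest probe set stood for each gene, and where 1 array was under 100 the fold is a bound against 100. No test between genotypes was possible. The number of arrays limits the precision. The members, gene lists and settings were chosen with earlier results of these data known. List genes were named at 2-fold or more with 100 on both arrays (up to 6 a list), besides known targets and all genes of the WAP cluster. Protein sequences were not analysed here. Steps were checked on made-up arrays with planted differences, set noise and 1 probe set per gene. That check does not cover the choice of the brightest probe set. Nor does it measure how often 2-fold differences arise between these arrays without an effect of genotype. Calculations used pandas 2.3.3 and numpy 2.4.6 under Python 3.11.15, and plots used matplotlib 3.10.9.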

Additional observations from a re-analysis of the deposited data

How the results depend on the processing

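The count of 3 inhibitors at least 2-fold higher was the same under each alternative of scaling, filter, floor, added constant and choice of probe sets, and was 2 at a 3-fold and 3 at a 1.5-fold threshold. Each of the 3 had 1 probe set, with signals above 200 on both arrays. The filters up to 200, the floor and the choice of probe sets therefore could not change their ratios. The count at least 2-fold lower, 1 as reported and made up of *Wfdc3*, was 0 with a filter of 100 on both arrays, with a filter at 200, with signals under 100 set to 100, and with a filter at 1000 that was added after seeing the data. These settings remove or raise its *Fbln5-/-* signal of 35.9 by construction. Over all genes, the counts were 2392 higher and 1240 lower at a 1.5-fold threshold, 316 and 211 at a 3-fold threshold, 2048 and 1535 with no filter, and 309 and 220 with the filter at 1000, where 5.84% of genes and 3 of 8 inhibitors were higher. Of the inhibitors' log2 ratios, that of *Wfdc5* changed sign, to −0.01, when the median ratio was set to 1, because that rescaling lowers every log2 ratio by the same amount. Some list medians also changed sign. Under that rescaling the medians were −0.08 for estrogen-regulated genes and −0.01 for basal genes. With a filter of 100 on both arrays the mast cell median was −0.08, against 0.20 in the main setting. The neutrophil median was 0.38 in the main setting and −0.50 without probe sets named _x_at, _s_at or _a_at. No paired analysis was possible because each genotype had 1 array. On the deposited scale, 55.9% of *Fbln5-/-* and 54.8% of WT probe sets were under 100, which limits what can be said of *Wfdc1* and *Wfdc3*.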

Other observations

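Other marker lists gave values that belong to no comparison above. Over all genes measured, 7.21% were at least 2-fold higher and 4.78% lower. Of 10 stromal genes measured, 1 was at least 2-fold higher, *Dpt* (log2 ratio 1.42), and 0 were lower, with a list median of 0.40. Smooth muscle genes had a median of 0.11 (1 of 10 higher, 0 lower) and endothelial genes one of 0.11 (0 of 10 higher, 0 lower). Macrophage genes had a median of 0.14 (3 of 11 higher, 1 lower), and skeletal muscle genes one of 0.54 (2 of 11 higher, 0 lower). Of 6 mast cell genes measured, 1 was higher, the tryptase gene *Tpsab1*, with 446.9 on the *Fbln5-/-* array and 63.3 on the WT array (at least 4.47-fold). The second tryptase gene, *Tpsb2*, had 213.8 and 313.4 in the same order (log2 ratio −0.55). For estrogen-regulated genes the median was 0.02. Of 11 measured, 1 was at least 2-fold higher at the brightest probe set, the mucosal defence gene *Lcn2* (2.27-fold), and 0 lower. *Igf1* had a log2 ratio of −0.85 at its brightest probe set, and its other probe sets ran from −0.97 to −1.32. *Pgr*, the progesterone receptor, had 8000 on the *Fbln5-/-* array and 9324 on the WT array (log2 ratio −0.22), and *Esr1*, the estrogen receptor, had 9332 and 7502 in the same order (log2 ratio 0.31).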
